A study of Rattus norvegicus with 232 samples.

Results

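The spontaneously hypertensive rat of the substrain SHR/OlaIpcv was compared with its stroke-prone relative SHRSP/A3NCrl by sequencing of brain RNA. Both strains are inbred and belong to the Hybrid Rat Diversity Panel, so the animals of 1 strain are near-identical in genotype. Per the labels and the study's methods all animals were male, and none was treated. Of 232 samples of 74 strains in the series, the strain labels put 23 libraries of 4 animals in SHR/OlaIpcv and 3 libraries of 3 animals in SHRSP/A3NCrl, which makes 26 members. The tissue was labelled whole brain, and per the study's methods 1 side of a sagittally cut brain was sequenced. Per the methods, the SHR/OlaIpcv brains came frozen from the colony in Prague that keeps the HXB/BXH recombinant inbred family and its other progenitor, BN-Lx/Cub. The SHRSP/A3NCrl rats came from a commercial breeder, as did WKY/NCrl and F344/NCrl, and their brains were taken at another site into RNAlater, the preservative that the labels name for all samples. Strain and source of the animals therefore cannot be told apart from these 2 strains alone. The labels give no age, and the methods describe young adults from both sources.

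SHR and SHRSP were bred in Japan from Wistar-Kyoto rats selected for high blood pressure. SHRSP was selected further for animals whose families died of stroke, and it is used as a model of severe hypertension with cerebral bleeding and infarction. Because of this history the strains share much of their genome. In bulk RNA fewer cells of a type and less RNA per cell cannot be told apart.

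Values of the v5 table, made on the rn6 genome with Ensembl 96 genes, were on a log2-like scale, normalised by the authors, and differences are given as SHRSP/A3NCrl minus SHR/OlaIpcv on that scale. The files hold no read counts, so the depth of each library is unknown. The v5 table held 132 animals of 45 strains with 1 library each, among them 3 animals of each of both strains. The SHR/OlaIpcv animals 1, 2 and 3 were in batches 11, 1 and 6, and the SHRSP/A3NCrl animals 1, 2 and 3 in batches 10, 10 and 8, so no batch held both strains. The batch number in the sample titles differs from this batch label for some libraries and was 9, 8 and 8 for the SHRSP/A3NCrl animals, again shared with no SHR/OlaIpcv animal of the v5 table. Batch below means the batch label unless the titles are named. The v7.1 RefSeq table held 2 animals of each strain. These were SHR/OlaIpcv 1 and 4, with 12 and 6 libraries, and SHRSP/A3NCrl 2 and 3 with 1 library each. Animals SHR/OlaIpcv 1, SHRSP/A3NCrl 2 and SHRSP/A3NCrl 3 were thus in both tables, and a difference seen in both is not independent evidence. The pan-neuronal list of 12 genes, which marks brain, summed to between 17.74 and 17.98 in the 6 animals of the v5 table.

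The library labelled SHRSP/A3NCrl 1 stood apart from the other libraries of its strain. Over 500 features that separate the other strains, its r with the F344/NCrl mean was 0.793 and its r with its own strain mean was 0.784. Its nearest library was that labelled F344/NCrl 2, with an r of 0.890, which is part of the F344/NCrl mean. Next came SHRSP/A3NCrl 2 with 0.773, so F344/NCrl 1 and 3 lay lower. F344/NCrl 2 in turn was nearest to the SHRSP/A3NCrl mean, with an r of 0.800, and that mean holds SHRSP/A3NCrl 1. After SHRSP/A3NCrl 1 its nearest library was SHRSP/A3NCrl 3, with 0.687. The median absolute difference between these 2 libraries was 0.0762 over all features, against 0.179 and 0.175 between SHRSP/A3NCrl 1 and the others of its strain and 0.112 between it and SHR/OlaIpcv 3. By r over the 500 features the other 5 libraries of both strains were nearest to their own strain. The lowest of these r was 0.577, for SHR/OlaIpcv 1. By the median absolute difference SHR/OlaIpcv 3 lay closer to SHRSP/A3NCrl 1 than to SHR/OlaIpcv 1 (0.175) and 2 (0.154). SHR/OlaIpcv 1 differed from SHR/OlaIpcv 2 by 0.265 and from SHRSP/A3NCrl 1 and 2 by 0.188. Single genes differed in how these libraries stood. Pld1 was at 10.05 in SHRSP/A3NCrl 1 and at 9.15 and 9.42 in animals 2 and 3, and F344/NCrl had 10.28, 10.24 and 10.17. Ifit1 was at 6.31 in F344/NCrl 2 and at 4.91 and 4.93 in F344/NCrl 1 and 3, while SHRSP/A3NCrl 1 had 4.94, close to the others of its strain. Whether the libraries labelled SHRSP/A3NCrl 1 and F344/NCrl 2 hold RNA of the strains they name cannot be settled from these values. Differences were therefore also fitted without SHRSP/A3NCrl 1, and the values of F344/NCrl 2 carry the same doubt.

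With all 3 SHRSP/A3NCrl animals, 1776 of 18309 features passed the limma test at 5% FDR, which is 9.7%. Of these, 943 (5.15% of all features) were higher and 833 (4.55%) lower in SHRSP/A3NCrl. After centring each animal on its median, 788 were higher and 1040 lower. Without SHRSP/A3NCrl 1 the count was 3522, or 19.2%, with 1691 (9.24%) higher and 1831 (10.0%) lower. Both fits called 1634 features in the same direction, which is 8.92% of all features, 864 of them higher (4.72%) and 770 lower (4.21%). The 3 values of one strain lay wholly above or below those of the other for 2568 features, or 14.0%. Single animals moved the count. It was 3090 without SHR/OlaIpcv 1, 1005 without SHR/OlaIpcv 2, 548 without SHRSP/A3NCrl 2 and 724 without SHRSP/A3NCrl 3. Of 20859 genes of the v7.1 table, 25 were called, or 0.12%, with 12 (0.0575%) higher and 13 (0.0623%) lower, and 621 had an unadjusted p under 0.05. In the v5 fit with all 3 SHRSP/A3NCrl animals 4751 features had one. The v7.1 fit of animals thus called few genes of any kind, and a missing call there says little about a gene. A fit of all v7.1 libraries with strain and batch called 422 genes, or 2.02%, with 198 (0.949%) higher and 224 (1.07%) lower. It took the 12 and 6 libraries of SHR/OlaIpcv 1 and 4 singly, with the animal as a block. It thus held no more animals of the strains than the fit that called 25. With batch as a covariate 1211 features of the v5 table were called, or 6.61%, 697 (3.81%) higher and 514 (2.81%) lower, and 1028 were among the 1776. With the batch number of the titles 2323 were called, of which 561 were among the 1776. By the titles, SHR/OlaIpcv 2 and 3 shared batches only with the HXB/BXH family and BN-Lx/Cub. None of these was in a title batch with SHRSP/A3NCrl or with a strain that shared one. The contrast of the title batch fit therefore rested on SHR/OlaIpcv 1 alone for that strain. When the fit held only the animals of the 2 strains in the v5 table, 24 features were called. In the v6 Ensembl table, which held 3 animals of each strain, 48 of 18644 features were called, or 0.257%.

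Of the genes called in both v5 fits, 8 were also called in the v7.1 table in the same direction. They were Havcr2, Ifit1, Rsad2, Cd93, Pld1, Rps25, RGD1563294 and LOC102548695, and they were singled out after their values were seen. The values of the strains did not overlap in the v5 table for any of them, which the choice by calls on the same animals in part fixes.

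**Figure D1:**
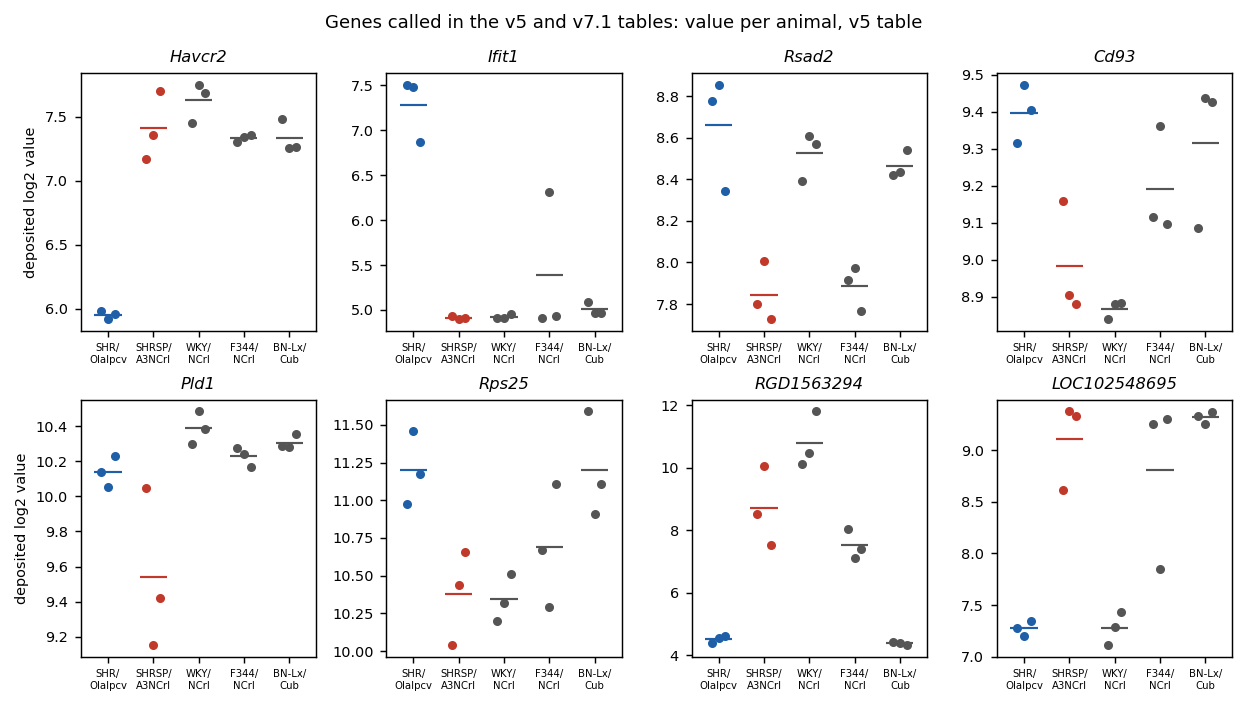
Deposited log2 value of the 8 genes called in both tables, 1 point per animal of the v5 table and a bar at the strain mean, for SHR/OlaIpcv, SHRSP/A3NCrl and 3 other strains, with a vertical scale per gene. SHR/OlaIpcv had 5.92 to 5.98 for Havcr2 while every other animal shown had 7.17 or more, and the Pld1 value of SHRSP/A3NCrl 1 lay at 10.05, close to the SHR/OlaIpcv animals.

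Havcr2 (ENSRNOG00000031443, chromosome 10, 31561895 to 31593882, rn6) encodes TIM-3, an immune receptor that in brain is found mainly on microglia. The SHR/OlaIpcv animals had 5.98, 5.92 and 5.96 and the SHRSP/A3NCrl animals 7.17, 7.36 and 7.70. SHRSP/A3NCrl was higher by 1.45 ± 0.11 (SE, n = 3 and 3, adjusted p 1.04e-18), or 2.74-fold on the deposited scale, and by 1.58 without animal 1. SHR/OlaIpcv was the lowest of the 45 strains. WKY/NCrl had 7.63 ± 0.16 (SD, n = 3) and BN-Lx/Cub 7.33 ± 0.13 (SD, n = 3). Its v7.1 values were 5.67 and 5.70 in SHR/OlaIpcv and 7.35 and 7.62 in SHRSP/A3NCrl, a difference of 1.80 (adjusted p 8.59e-18), and SHR/OlaIpcv was again the lowest strain, of 73. Its 12 libraries of animal 1 lay between 5.09 and 6.34 and its 6 of animal 4 between 5.37 and 6.23, all below both SHRSP/A3NCrl libraries. By the batch label, batch 10 held a library of each strain, and the difference between SHRSP/A3NCrl 2 and SHR/OlaIpcv 1 there was 2.02. The titles put these libraries in batches 8 and 10, so whether they shared a batch is uncertain. Of the 6 features within 500 kb of Havcr2, the skin ichthyosis gene Nipal4 was called, lower by -0.36. Timd2, another member of the TIM family, differed by -0.26 (adjusted p 0.301).

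Ifit1 (ENSRNOG00000019050) encodes an interferon-induced protein that binds foreign RNA lacking a host cap. The SHR/OlaIpcv animals had 7.51, 7.49 and 6.87, and the SHRSP/A3NCrl animals 4.94, 4.90 and 4.91. The difference was -2.37 ± 0.21 (SE, n = 3 and 3, adjusted p 2.74e-16), or 5.17-fold on the deposited scale, and -2.38 without animal 1. All 3 WKY/NCrl animals lay between 4.91 and 4.95 and BN-Lx/Cub had 5.01 ± 0.07 (SD, n = 3), so both stood with SHRSP/A3NCrl. The v7.1 values were 7.70 and 7.18 in SHR/OlaIpcv and 4.51 and 5.00 in SHRSP/A3NCrl, a difference of -2.69 (adjusted p 5.86e-08). Between the same libraries of batch 10 the difference was -3.50, with the same doubt about the batch. LOC102548695 (ENSRNOG00000055608), an uncharacterised locus, went the other way. It was at 7.28, 7.20 and 7.35 in SHR/OlaIpcv and at 8.61, 9.38 and 9.33 in SHRSP/A3NCrl, higher by 1.83 ± 0.16 (SE, n = 3 and 3, adjusted p 1.71e-16), by 2.08 without animal 1 and by 1.84 in the v7.1 table (adjusted p 1.35e-08). BN-Lx/Cub at 9.32 stood with SHRSP/A3NCrl and WKY/NCrl at 7.28 with SHR/OlaIpcv.

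The HXB/BXH strains, whose genomes are mosaics of SHR/OlaIpcv and BN-Lx/Cub, gave the level of some of the genes called in both tables in other animals of the v5 table. For Ifit1, 14 of 30 strain means lay between 6.52 and 7.79, beside SHR/OlaIpcv, and 16 lay between 4.93 and 5.14, beside BN-Lx/Cub. For LOC102548695, 17 lay between 7.26 and 7.77 and 13 between 9.14 and 9.36. No strain mean fell between these ranges. Havcr2 differed from this pattern: all 30 means lay between 7.00 and 7.45, above every SHR/OlaIpcv animal although SHR/OlaIpcv is a progenitor. For Pld1 all 30 lay between 10.03 and 10.33, above SHRSP/A3NCrl 2 and 3. For Rps25 the means lay between 10.21 (HXB5/Ipcv) and 11.19 (HXB25/Ipcv), although SHR/OlaIpcv and BN-Lx/Cub both had 11.20. For Rsad2 they lay between 7.80 (BXH10/Cub) and 8.77 (BXH6/Cub), with SHRSP/A3NCrl at 7.84 and SHR/OlaIpcv at 8.66. These levels are a description without a test.

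**Figure D2:**
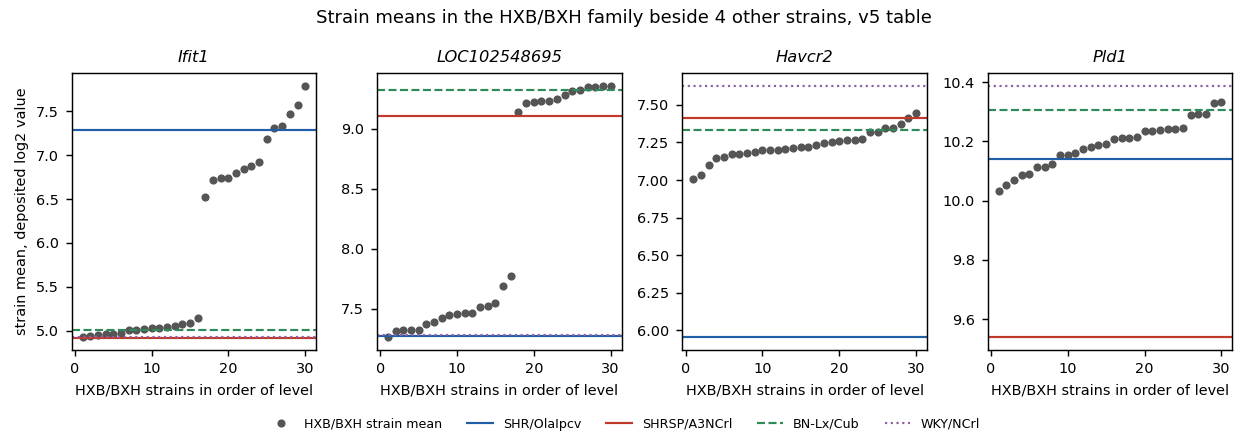
Strain means of Ifit1, LOC102548695, Havcr2 and Pld1 on the deposited log2 scale in the 30 HXB/BXH strains of the v5 table, in order of level, with lines at the means of SHR/OlaIpcv, SHRSP/A3NCrl, BN-Lx/Cub and WKY/NCrl. Ifit1 and LOC102548695 split into separate levels, while all 30 points lie above the SHR/OlaIpcv line for Havcr2 and above the SHRSP/A3NCrl line for Pld1.

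Rsad2 (ENSRNOG00000007539, chromosome 6, 45655954 to 45669148, rn6) encodes viperin, an interferon-induced antiviral enzyme. It was at 8.78, 8.85 and 8.35 in SHR/OlaIpcv and at 7.80, 8.01 and 7.73 in SHRSP/A3NCrl. The difference was -0.81 ± 0.17 (SE, n = 3 and 3, adjusted p 0.000535), -0.79 without animal 1, and the v7.1 values were 8.76 and 8.57 against 7.59 and 7.73 (adjusted p 0.0261). WKY/NCrl at 8.53 and BN-Lx/Cub at 8.47 lay with SHR/OlaIpcv, unlike for Ifit1. Cmpk2, a mitochondrial nucleotide kinase and interferon-induced gene next to Rsad2, had a difference of -0.08 (adjusted p 0.644). Of the 22 interferon-stimulated list members with a v5 value, Ifit1 and Rsad2 were lower and none was higher in both fits, where 4.21% of all features were lower. The median difference of the list was -0.02, beside -0.01 over all features. It was 0.05 without animal 1, -0.11 with batch as a covariate and -0.19 in the v7.1 table. The same pair was lower in v7.1, of 25 members, where 0.0623% of all genes were. The antiviral GTPase Mx1 differed by -0.10 (adjusted p 0.722). With batch as a covariate the regulator Irf7 joined them in the v5 table, at -0.93 (adjusted p 0.0114), and Ifit3, a partner of Ifit1, in the v7.1 libraries at -0.97 (adjusted p 0.0330). In the fits with strain alone neither was called. Irf7 then differed by -0.56 (adjusted p 0.0769), or by -0.28 without animal 1 (adjusted p 0.420), and Ifit3 by -0.55 over v7.1 animals. Irf7 was at 9.10, 7.77 and 7.73 in SHR/OlaIpcv and at 7.06, 8.15 and 7.70 in SHRSP/A3NCrl, so its groups overlapped.

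The promoters of Rsad2, Irf7 and Ifit3 are shown because these genes, beside Ifit1, were called lower in at least 1 fit. Ifit1 had no RefSeq promoter entry in the source used, so its promoter is not shown. They are RefSeq sequences of the GRCr8 assembly on the coding strand, 250 bases before to 50 after the gene start. Capitals mark matches to GAAA, any 2 bases and GAAA again, or to the reverse complement, TTTC, any 2 bases and TTTC, letters shared by interferon-responsive elements. Rsad2 lies at chr6:48788071-48788370 on the minus strand, with a match at position -147. Irf7 lies at chr1:205799974-205800273 on the minus strand, with a match at -69. Ifit3 lies at chr1:241527076-241527375 on the plus strand, with a match at -44.
Rsad2: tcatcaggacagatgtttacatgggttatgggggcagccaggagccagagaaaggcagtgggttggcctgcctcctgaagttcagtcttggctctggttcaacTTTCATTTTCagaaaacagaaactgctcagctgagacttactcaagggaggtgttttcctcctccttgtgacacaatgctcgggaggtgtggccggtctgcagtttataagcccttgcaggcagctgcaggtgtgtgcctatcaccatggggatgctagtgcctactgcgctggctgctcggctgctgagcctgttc
Irf7: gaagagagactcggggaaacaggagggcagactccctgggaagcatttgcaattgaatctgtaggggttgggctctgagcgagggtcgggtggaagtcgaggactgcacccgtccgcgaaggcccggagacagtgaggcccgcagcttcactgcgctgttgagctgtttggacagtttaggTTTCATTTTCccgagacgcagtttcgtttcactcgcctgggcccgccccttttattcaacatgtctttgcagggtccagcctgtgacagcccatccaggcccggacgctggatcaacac
Ifit3: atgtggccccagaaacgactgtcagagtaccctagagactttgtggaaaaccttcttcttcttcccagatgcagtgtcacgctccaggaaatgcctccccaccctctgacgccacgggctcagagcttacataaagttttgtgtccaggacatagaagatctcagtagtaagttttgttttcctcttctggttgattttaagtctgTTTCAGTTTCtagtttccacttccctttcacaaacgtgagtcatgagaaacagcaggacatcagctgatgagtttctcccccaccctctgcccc

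The motif occurred in 1312 of 33469 promoters of the same length, or 3.92%, and in 13 of the 18 interferon list members with a promoter. It was thus also present at members that were not called, and a match is a description of the reference letters, not of either strain.

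The other genes called in both tables had smaller or less even differences. Pld1 (ENSRNOG00000028156, chromosome 2, 113652348 to 113862555, rn6) encodes phospholipase D, which makes the signalling lipid phosphatidic acid. It was at 10.14, 10.05 and 10.23 in SHR/OlaIpcv and at 10.05, 9.15 and 9.42 in SHRSP/A3NCrl, a difference of -0.60 ± 0.10 (SE, n = 3 and 3, adjusted p 2.89e-05) and of -0.85 without animal 1. SHRSP/A3NCrl was the lowest of 45 strains, and again of 73 in the v7.1 table, where the difference was -0.58 (adjusted p 0.0434). Cd93, a surface receptor of endothelium and myeloid cells, had 9.32, 9.47 and 9.40 against 9.16, 8.91 and 8.88. It differed by -0.42 ± 0.11 (SE, n = 3 and 3, adjusted p 0.00826), by -0.50 without animal 1, and by -0.67 in the v7.1 table (adjusted p 0.0357). With batch as a covariate its v5 call was lost (adjusted p 0.0537). For Cd93 the v5 mean of WKY/NCrl was 8.87 and that of BN-Lx/Cub 9.32. Rps25, a small-subunit ribosomal protein, had 10.98, 11.46 and 11.18 against 10.04, 10.44 and 10.66. It differed by -0.83 ± 0.17 (SE, n = 3 and 3, adjusted p 0.000635), by -0.66 without animal 1 and by -1.39 in the v7.1 table (adjusted p 0.0434), but by -0.10 in the v6 Ensembl table. Its value is uncertain, since it depended on the table. For Rps25 the v5 mean of WKY/NCrl was 10.34 and that of BN-Lx/Cub 11.20. RGD1563294, a predicted gene on chromosome 4, had the largest difference of the 8. It was at 4.38, 4.55 and 4.62 in SHR/OlaIpcv and at 8.51, 10.04 and 7.54 in SHRSP/A3NCrl, a difference of 4.18, or 4.27 without animal 1. The v5 mean of WKY/NCrl was 10.80, so the high level was not particular to SHRSP/A3NCrl. BN-Lx/Cub had 4.39, and the HXB/BXH means lay between 4.39 (BXH9/Cub) and 4.65 (HXB27/Ipcv), beside SHR/OlaIpcv. In the v6 table all 6 animals of both strains lay between 1.64 and 1.87, so this difference was seen in the v5 and v7.1 tables and not in v6.

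Genes proposed earlier for hypertension or stroke in these strains were looked up by name. Stim1, the calcium sensor of the endoplasmic reticulum, was at 11.70, 11.20 and 11.50 in SHR/OlaIpcv and at 11.48, 11.61 and 11.47 in SHRSP/A3NCrl, a difference of 0.06 ± 0.10 (SE, n = 3 and 3, adjusted p 0.773). Ndufc2, a subunit of respiratory complex I, differed by -0.14 ± 0.19 (SE, adjusted p 0.674), the glutathione transferase Gstm1 by 0.19 ± 0.13 (SE, adjusted p 0.334), and the atrial peptide convertase Corin by 0.09 ± 0.08 (SE, adjusted p 0.505). None of these 4 passed the test in either table, and their groups overlapped in the v5 table. Cd36, a fatty acid translocase, had values in the v7.1 table, at 3.80 and 3.55 in SHR/OlaIpcv and 3.98 and 4.17 in SHRSP/A3NCrl (adjusted p 1.00). Ephx2, the soluble epoxide hydrolase that breaks down vasodilating epoxides, was at 8.94, 8.42 and 8.98 in SHR/OlaIpcv and at 8.51, 7.58 and 7.30 in SHRSP/A3NCrl. It fell by 0.98 ± 0.26 (SE, n = 3 and 3, adjusted p 0.00834), and by 1.34 without animal 1. In the v7.1 table its difference was -0.72 and did not pass the test (adjusted p 1.00), while the fit of v7.1 libraries with batch gave -1.24 (adjusted p 0.0180). WKY/NCrl had 7.26 ± 0.13 (SD, n = 3) a mean below those of both strains, while BN-Lx/Cub had 8.87 ± 0.62 (SD, n = 3). Of the 15 candidates with a v5 value, Ephx2 and the dopamine receptor Drd1 were lower and the lipid regulator Srebf1 higher in both fits, or 20.0% beside 8.92% of all features. Srebf1 differed by 0.56, and by 0.21 in the v7.1 table (adjusted p 1.00).

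**Figure D3:**
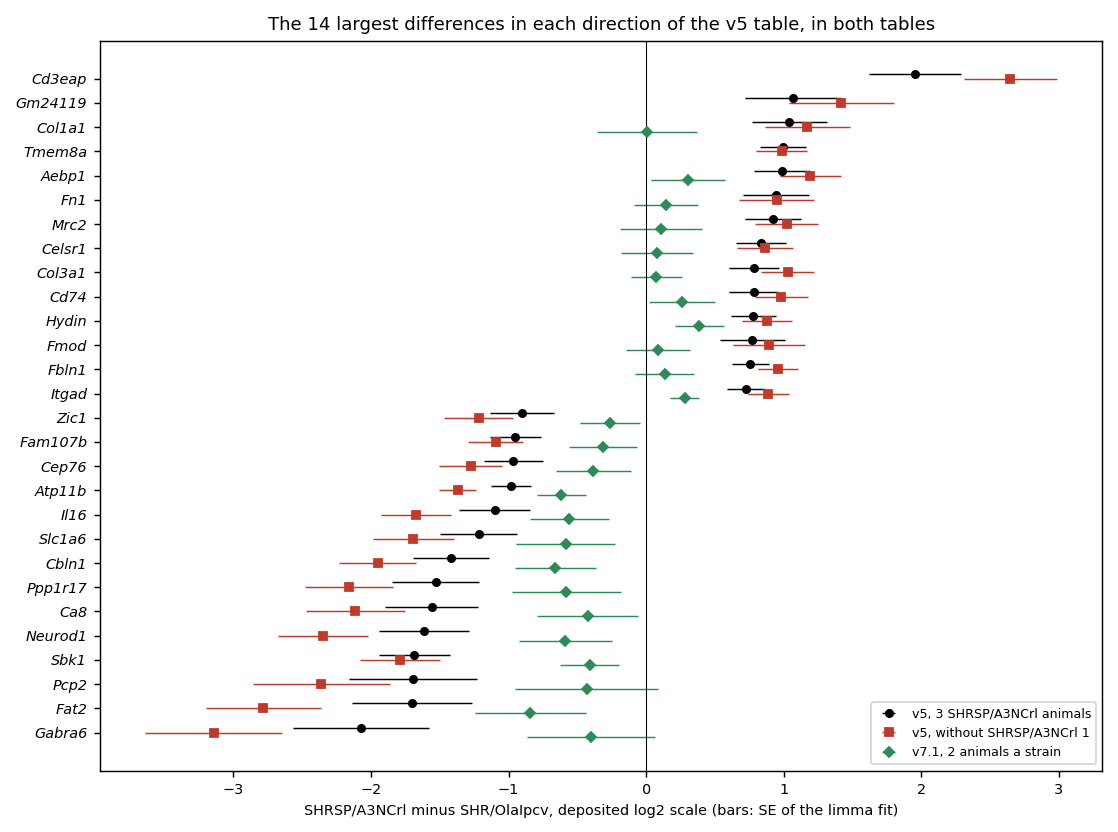
Difference SHRSP/A3NCrl minus SHR/OlaIpcv on the deposited log2 scale, with the SE of the limma fit, for the 14 largest differences in each direction, in the v5 table with and without SHRSP/A3NCrl 1 and in the v7.1 table. The v7.1 points lie nearer 0, and the median absolute difference of the 25 genes with both values was 0.98 in v5 and 0.38 in v7.1. The genes were chosen by the size of their v5 difference, which by itself favours smaller values in v7.1. Over all features the median absolute difference was 0.123 in v5 and 0.080 in v7.1.

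Among genes with a mean above the table median, the 14 largest differences in each direction were taken by the smaller of the differences of both fits. Among the 14 falls in SHRSP/A3NCrl were Gabra6, a GABA-A receptor subunit of cerebellar granule cells, Pcp2 and Ppp1r17 of Purkinje cells, Cbln1, the cerebellar synapse organiser, and Slc1a6, the Purkinje cell glutamate transporter. Fat2, Neurod1, Zic1 and Ca8 are likewise known for cerebellar neurons. The remaining 5 were Sbk1, Il16, Atp11b, Cep76 and Fam107b. Gabra6 was at 11.12, 13.18 and 11.35 in SHR/OlaIpcv and at 11.94, 8.51 and 8.97 in SHRSP/A3NCrl. SHRSP/A3NCrl 1 lay inside the range of SHR/OlaIpcv, and the groups overlapped for 11 of the 14. Gabra6 fell by 2.08 ± 0.49 (SE, n = 3 and 3, adjusted p 0.00332), by 3.14 without animal 1, and differed by -0.40 in the v7.1 table (adjusted p 1.00). Of the 28 genes, 25 had a v7.1 value. None of these was called in the v7.1 fit of animals, where 0.12% of all genes were, and 8 were called in the v7.1 libraries with batch, where 2.02% were. All 25 had the same sign in v7.1 as in v5, which is not independent evidence since the tables share animals. The lipid flippase Atp11b differed by -0.62 over v7.1 animals (adjusted p 0.244) and by -1.07 over v7.1 libraries with batch (adjusted p 7.57e-07).

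Of the 12 cerebellum list members with a v5 value, 10 were lower in both fits, where 4.21% of all features were, and the median difference was -1.39. The summed level of the list was 16.26, 16.76 and 16.13 in SHR/OlaIpcv and 16.31, 15.16 and 15.34 in SHRSP/A3NCrl. Only animals 2 and 3 of SHRSP/A3NCrl were low. None of the 12 was called by the v7.1 fit, where 0.12% of all genes were and 621 had an unadjusted p under 0.05. The v7.1 summed levels were 16.05 and 15.97 against 15.56 and 15.79. Other strains showed the same low level in the v5 table. In batches 8 to 11, 31 libraries of 11 strains lay between 15.16 and 15.63, none of them of the HXB/BXH family or its progenitors. The 93 libraries of batches 1 to 7 and 13, of which 88 were of that family or a progenitor, lay between 15.82 and 16.76. The 8 other libraries of batches 8 to 11 lay between 16.00 and 16.50 and included 5 HXB/BXH strains, SHR/OlaIpcv 1, SHRSP/A3NCrl 1 and F344/NCrl 2. Within batch 10 by the batch label, the 5 HXB/BXH libraries, all of batch 7 by their titles, lay between 16.00 and 16.50. Of the 12 other libraries of batch label 10, with title batch 8 or 9, SHRSP/A3NCrl 1 and F344/NCrl 2 lay at 16.31 and 16.32 and the 10 others between 15.16 and 15.41. The 5 libraries of F344/Stm and LE/Stm, in batch 13, lay between 16.30 and 16.52. The part of batch and of the source of the animals in the low level of SHRSP/A3NCrl 2 and 3 was not tested. With batch as a covariate 6 of the 12 stayed lower in the v5 table, where 2.81% of all features were, among them Cbln1, Cbln3, En2 and Neurod1. In the v7.1 libraries with batch none of the 12 was called, where 2.02% of all genes were.

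**Figure D4:**
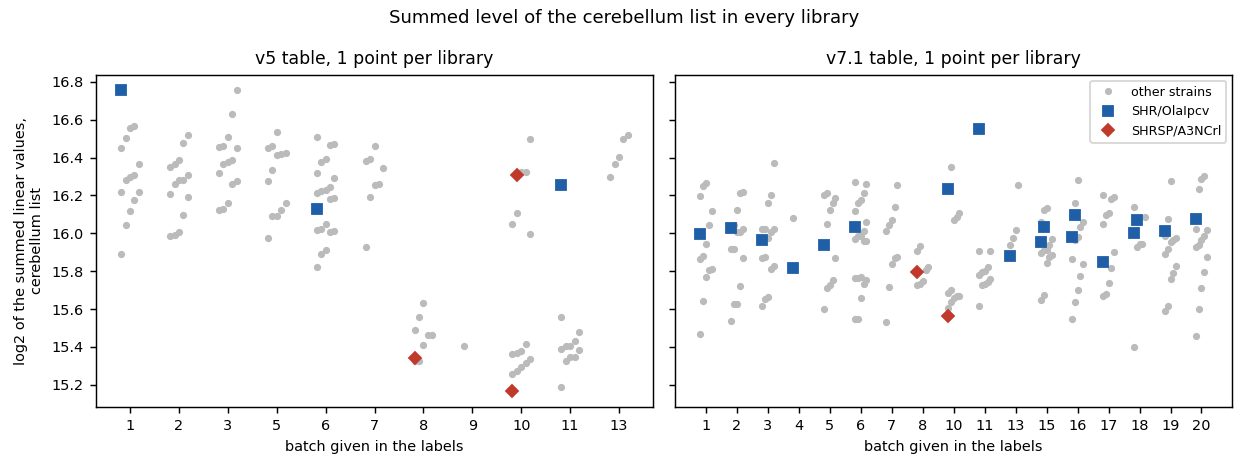
Summed level of the cerebellum list (log2 of the summed linear values) in every library of the v5 and v7.1 tables, by the batch in the labels, with SHR/OlaIpcv and SHRSP/A3NCrl marked. In the v5 table SHRSP/A3NCrl 2 and 3 sit at 15.16 and 15.34 among other low libraries of batches 8 to 11, and SHRSP/A3NCrl 1 sits at 16.31.

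The 14 rises included the collagens Col1a1 and Col3a1, fibronectin Fn1, the matrix genes Fmod, Fbln1 and Aebp1 and the collagen receptor Mrc2. They also included the MHC class II chaperone Cd74, the leukocyte integrin Itgad, the cilium gene Hydin, the cadherin Celsr1, and Tmem8a, Cd3eap and Gm24119. Fn1 was at 11.77, 10.50 and 11.37 in SHR/OlaIpcv and at 12.15, 12.50 and 11.83 in SHRSP/A3NCrl, higher by 0.94 ± 0.24 (SE, n = 3 and 3, adjusted p 0.00691), and by 0.95 without animal 1. In the v7.1 table its difference was 0.15 (adjusted p 1.00), and in the v7.1 libraries with batch 0.80 (adjusted p 0.0330). Tmem8a was the most even of them, at 9.53, 9.75 and 9.76 against 10.69, 10.65 and 10.67. Its difference was 0.99 (adjusted p 1.44e-05), but 0.00 in the v6 table. Of 17 fibroblast and meningeal matrix genes 6 rose in both fits, where 4.72% of all features did. None of the 20 list members with a v7.1 value was called in the v7.1 fit of animals. That fit called 0.12% of all genes, so the missing calls say little about this list. The summed level of the 17 genes in v5 was 14.79, 14.04 and 14.41 in SHR/OlaIpcv and 14.72, 15.24 and 14.88 in SHRSP/A3NCrl. SHR/OlaIpcv 1 thus lay above SHRSP/A3NCrl 1. The mean of the list per batch was 14.29 to 14.49 in batches 1 to 7, 14.62 in batch 13 and 14.47 to 14.87 in batches 8 to 11, and 14.42 to 14.55 in the v7.1 table. Within batch 10 of the v5 table the 5 HXB/BXH libraries (title batch 7) lay between 14.43 and 14.62 and the 12 others (title batch 8 or 9) between 14.44 and 15.44. With batch as a covariate 5 of 17 were higher in the v5 table, where 3.81% of all features were, among them Slc6a13, which had not been called without it. Col1a1 and Col6a2 lost their calls, as did Fmod and Gm24119 of the 14 rises. The differences were then 0.84 for Col1a1, 0.69 for Fmod and 0.90 for Gm24119, beside 1.04, 0.77 and 1.07 without batch. With the batch number of the titles, a fit that rested on SHR/OlaIpcv 1 alone for that strain, none of the 14 rises kept its call. The difference of Tmem8a was then 0.60 (adjusted p 0.112), that of Cd3eap 1.08 (adjusted p 0.0884) and that of Cd74 0.43 (adjusted p 0.273). That of Col1a1 was 0.07 (adjusted p 0.932), that of Fn1 0.17 (adjusted p 0.788) and that of Aebp1 0.34 (adjusted p 0.330), and Fmod turned sign. In the v7.1 libraries with batch 3 of the 20 matrix genes were higher, where 0.949% of all genes were, namely Col3a1, Fn1 and Slc13a4.

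Of 18 MHC and antigen processing genes, Cd74, RT1-Ba and RT1-Da were higher in both fits and none was lower, beside 4.72% of all features higher. RT1-Da lost its call with batch as a covariate. RT1-Ba, an MHC class II chain, had 6.20, 6.13 and 6.16 in SHR/OlaIpcv and 6.51, 7.11 and 6.92 in SHRSP/A3NCrl, without overlap. It was higher by 0.69 ± 0.15 (SE, n = 3 and 3, adjusted p 0.00156), by 0.86 without animal 1 and by 0.66 with batch as a covariate. Its v7.1 difference was 0.46 over animals (adjusted p 1.00) and 0.92 over libraries with batch (adjusted p 0.0155), where 18 libraries came from 2 SHR/OlaIpcv animals. Of 18 microglia and macrophage genes, Csf1r, the growth factor receptor of microglia, Ctss, Mrc1 and Tmem119 were higher in both fits, beside 4.72% of all features. Csf1r and Ctss lost their calls with batch as a covariate. The difference of Tmem119, a microglial surface marker, was 0.45 ± 0.14 (SE, n = 3 and 3, adjusted p 0.0258), and 0.04 in the v7.1 table. The summed level of the microglia list was 13.57 to 13.64 in SHR/OlaIpcv and 13.63, 13.94 and 14.08 in SHRSP/A3NCrl. The part of this list in the difference of Havcr2 was not tested.

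Some myelin and striatal genes were lower in SHRSP/A3NCrl. Of 18 oligodendrocyte and myelin genes, Mal, Mbp, Mog and Tspan2 were lower in both fits and none was higher, with a median difference of -0.23, beside 4.21% of all features lower. With the batch number of the titles as a covariate, a fit that rested on SHR/OlaIpcv 1 alone for that strain, Tspan2 turned sign, to 0.17. Mal, a myelin proteolipid, was at 13.98, 14.00 and 13.93 in SHR/OlaIpcv and at 13.40, 13.28 and 13.53 in SHRSP/A3NCrl. All 3 SHRSP/A3NCrl values lay below all SHR/OlaIpcv values, and the difference was -0.57 ± 0.12 (SE, n = 3 and 3, adjusted p 0.000508), and -0.57 without animal 1. In the v7.1 table it was -0.47 (adjusted p 0.368). In the v7.1 libraries with batch 4 of 18 were lower, namely Mal at -0.71, Mog, Tspan2 and the galactolipid enzyme Ugt8, where 1.07% of all genes were lower. Of 11 striatum genes, Drd1, Adora2a and the phosphodiesterase Pde10a were lower in both fits, beside 4.21% of all features, and Adora2a lost its call with batch as a covariate. Drd1, the D1 dopamine receptor of striatal output neurons, was at 10.19, 10.16 and 10.15 in SHR/OlaIpcv and at 9.92, 9.25 and 9.48 in SHRSP/A3NCrl. It fell by 0.62 ± 0.14 (SE, n = 3 and 3, adjusted p 0.00243), by 0.80 without animal 1, and differed by -0.48 in the v7.1 table (adjusted p 0.504) and by -0.64 in the v7.1 libraries with batch (adjusted p 0.00525).

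Of blood pressure pathways, 5 of 28 genes of vasoactive peptides and nitric oxide (17.9%), 5 of 22 of calcium entry and release (22.7%) and 4 of 24 of catecholamines (16.7%) were called in both fits, beside 8.92% of all features. Of 32 sodium and chloride transport genes 6.25% were. Of 15 renin-angiotensin and mineralocorticoid genes none was called with all 3 SHRSP/A3NCrl animals, where 9.7% of all features were. Without animal 1, 1 was higher and 1 lower, where 19.2% of all features were called. Among the 28 genes of vasoactive peptides and nitric oxide, the vasodilator adrenomedullin Adm and the natriuretic peptide receptor Npr1 were higher, and the bradykinin receptor Bdkrb2, Ephx2 and the cGMP phosphodiesterase Pde5a were lower. Adm had 5.13, 5.38 and 5.17 in SHR/OlaIpcv and 5.66, 5.71 and 5.49 in SHRSP/A3NCrl, higher by 0.39 ± 0.09 (SE, n = 3 and 3, adjusted p 0.00223), by 0.37 without animal 1, with a difference of 0.07 in the v7.1 table. Of 22 genes of store-operated calcium entry and calcium release, Orai1, a channel gated by Stim1, and Itpr3 were among the higher genes and Orai2 and Itpr1 among the lower. Itpr1 is abundant in Purkinje cells and is also on the cerebellum list. Of 32 sodium and chloride transport genes the chloride extruder Slc12a5 was higher and the proton exchanger Slc9a3 lower. Of 24 catecholamine genes, Adra1a and Adra2a were higher and Drd1 and Adrb3 lower. With batch as a covariate Pde5a, Orai2, Slc9a3 and Adra1a lost their calls.

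Among stress and metabolic lists, hypoxia genes had 18.2% and glutamate receptor and transporter genes 15.4% of their members called in both fits, beside 8.92% of all features. Complex I had 6.25%, the glutathione list 6.67% and the heat shock list 7.69%. Among 13 heat shock genes, Hspa8, the constitutive Hsc70 chaperone, was lower, at 13.54, 13.92 and 13.99 in SHRSP/A3NCrl against 15.04, 14.82 and 14.69 in SHR/OlaIpcv. The difference was -1.03 ± 0.15 (SE, n = 3 and 3, adjusted p 3.81e-07), and -0.89 without animal 1, but -0.06 in the v7.1 table and 0.16 in v6, so it depended on the table. The complex I subunit Ndufs5 had the same pattern, with -0.66 in v5 and 0.16 in v7.1, and Ndufa10 was the other of 32 subunits that was lower. Of 22 hypoxia genes Adm was higher and Hif1a, Vegfa and Ankrd37 were lower, and with batch as a covariate these 3 lost their calls. Of 45 glutathione, superoxide and thioredoxin genes, Cyba, Gsta4 and Txnrd2 were higher. Of 26 glutamate receptor and transporter genes Gria4, Grik2 and Slc1a6 were among the lower, and of 22 GABA genes Gabra6 was. Of 19 immediate early genes the neurotrophin Bdnf was lower. With the batch number of the sample titles as a covariate the differences of Fmod, Bdnf, Gria4, Hif1a and Tspan2 turned sign. That fit rested on SHR/OlaIpcv 1 alone for that strain. Ndufa10, Cyba, Gria4, Grik2, Gabra6 and Bdnf lost their calls with batch as a covariate. In all, 72 of 557 list members were called in both fits, or 12.9%, beside 8.92% of all features.

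**Figure D5:**
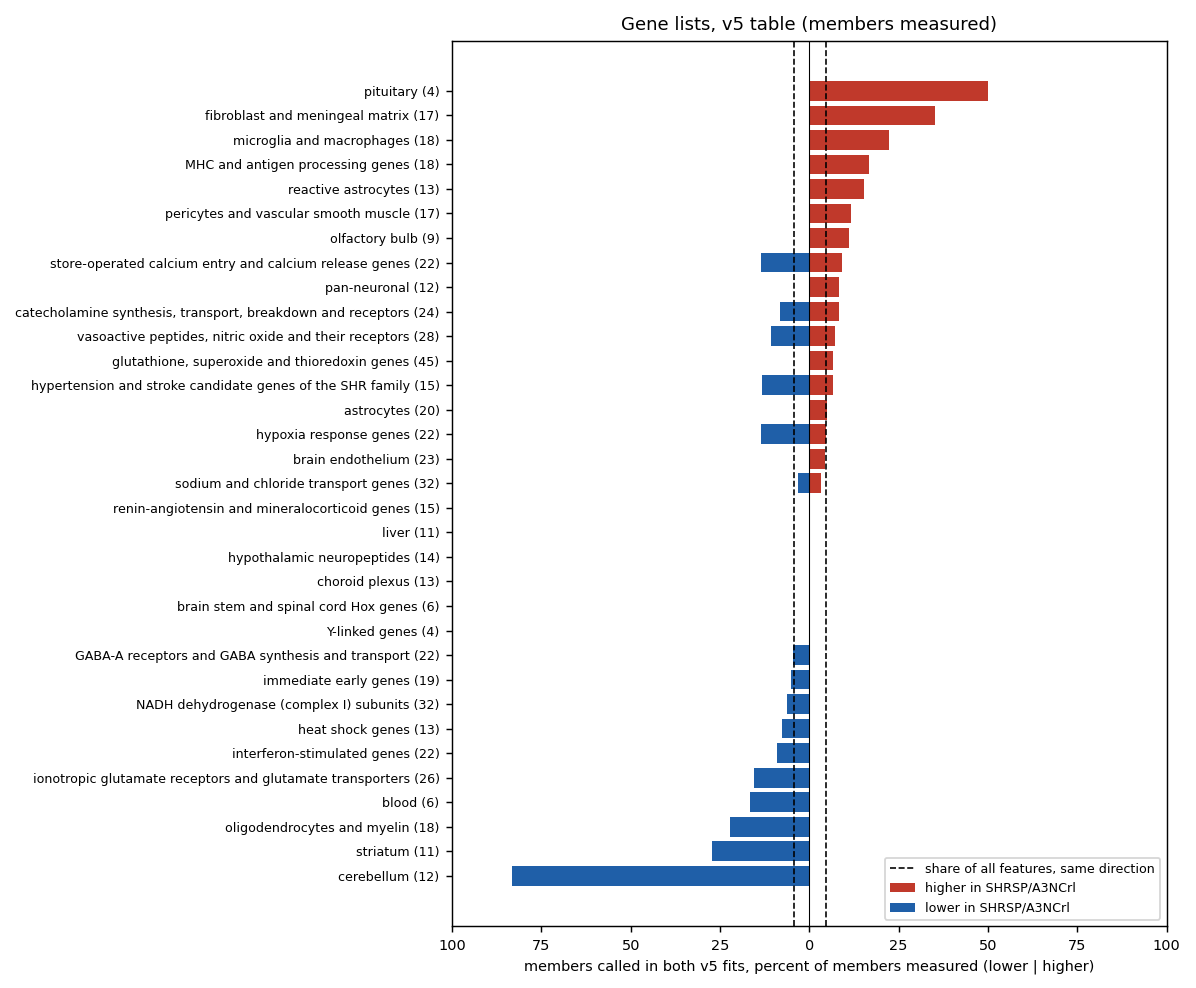
Share of the members of each gene list that was called in both v5 fits, to the right if higher and to the left if lower in SHRSP/A3NCrl, with the number of members measured in brackets and dashed lines at the share of all features (4.72% and 4.21%). The cerebellum list extends furthest to the left with 10 of 12 members lower, and 6 lists have no member called.

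Other cell and tissue lists gave the following counts in both fits, beside 8.92% of all features. Mfsd2a was the 1 endothelial gene of 23 that was called, higher. Des and Lmod1 were higher among 17 pericyte and smooth muscle genes, Glul among 20 astrocyte genes, and Vim and S1pr3 among 13 genes of reactive astrocytes. Tubb3 was higher among 12 pan-neuronal genes and Dlx2 among 9 of the olfactory bulb. The pituitary hormone subunits Cga and Lhb were higher among 4, and the haemoglobin chaperone Ahsp was lower among 6 blood genes. Mfsd2a, Lmod1, Glul, Tubb3 and Cga lost their calls with batch as a covariate. No gene of the choroid plexus, hypothalamic neuropeptide, Hox, liver or Y-linked lists was called in both fits.

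The called features were spread over the genome. Of 13197 features with a position on rn6, 9.16% were called in both fits. On chromosomes 1 to 20 and X the share lay between 4.86% on X and 11.9% on chromosome 19. Over 453 windows of 5 Mb the median share was 8.70%, and the highest was 26.3%, with 5 of 19 features at 225 to 230 Mb of chromosome 2.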

How the data were processed

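Brain RNA levels were read from gene tables that the authors deposited on a log2-like scale. For the reconstructed v5 table the methods describe adapter trimming with cutadapt 1.9.1, alignment with HISAT2 2.1.0 to rn6 genomes carrying each strain's single-nucleotide variants, assembly with StringTie 1.3.5 guided by Ensembl 96, RSEM estimates, dropping of samples with few counts or outlying values, removal of 1 RUV factor and a regularised log2 transform. The submitters' processing notes also name Bowtie2 2.4.5, HISAT2 2.2.1, StringTie 2.2.1 and RSEM 1.3.3 for some samples, without saying which table they made. Which steps made the v5 Ensembl, v6 and v7.1 tables is not given in the sources used here, and the log2 unit of these deposited values was read from their range. A deposited column of the reconstructed data held a value too high for a log2 level and was recorded as a score. The files hold no counts, so depth is unknown.

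Libraries of 1 animal were averaged, except in the fits of v7.1 and v6 libraries with batch, where libraries entered singly and the animal was a block. limma 3.58.1 in R 4.3.3 was fitted with strain as the only factor to all animals of a table, with Benjamini-Hochberg adjustment over all features and a 5% FDR. Spike-in rows, 76 in the v5 table, were left out, and 6 columns that could not be matched to a sample were not used. The name of the v5 column used for SHR/OlaIpcv 3 also fitted more than 1 sample. These samples share strain, animal and batch label but differ in the batch number of the titles. The column was placed by that title number, so which of these libraries it holds is less certain than the animal. Of the v5 features, 13197 had a symbol and position in the v5 annotation and 2956 took a symbol from the v7.1 annotation. The fits were tested on simulated data. The labels name separate animals but not their litters. Same-numbered animals did not deviate together (r of -0.13, -0.29 and -0.11).

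Genes were named by rule: among symbols with a mean above the table median that were called in both v5 fits, the 14 with the largest difference in each direction, ranked by the smaller of the differences of both fits, plus every member of 33 gene lists called in both fits and Stim1, Ndufc2, Gstm1, Cd36, Ephx2 and Corin. Genes outside this rule, among them Havcr2, its neighbours, Irf7 and Ifit3, were chosen after their values were seen. The members and lists were chosen with earlier results of these data known. Alternatives were the samples in the fit, a filter on low values, median centring, batch, the replicate block, the table, and leaving out each animal. Some list members are not reported here.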

Additional observations from a re-analysis of the deposited data

How the results depend on the processing

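The count of called features depended on the settings, and the cause was not tested except where the setting itself removes features or animals. With all 3 SHRSP/A3NCrl animals (1776 called) it was 24 with only the animals of the 2 strains. It was 920 for features above the table median and 108 with a difference of at least 1. In the v5 reconstructed table it was 522, or 0.525% of its features. In v6, with 3 animals of each strain, it was 48 (0.257%), and 703 (3.77%) in its libraries with batch. With the batch number of the titles it was 2323 (1005 higher and 1318 lower, 561 shared with the 1776), or 2489 without SHRSP/A3NCrl 1 (998 shared). The contrast of these title batch fits rested on SHR/OlaIpcv 1 alone for that strain. Leaving out 1 animal gave 548 to 3522. In v7.1 it was 25, 24 with values over 30 missing, 22 with 1 library per animal, 422 in libraries with batch, and 8 to 11 without 1 animal (10 without SHR/OlaIpcv 1). Without SHRSP/A3NCrl 1 (3522 called) the same settings gave 15, 2210, 158, 1183, 52, 934 and, in v7.1, 25, and leaving out a further animal gave 1312 to 4550. The v7.1 and v6 fits with batch and the other v7.1 settings were chosen after seeing the data. Of 99 named genes, of which 95 were called, 4 were called with the 2 strains alone, 63 with batch as a covariate, 33 with the batch number of the titles and 37 to 95 without 1 animal. The highest of the counts without 1 animal, 95, was that without SHRSP/A3NCrl 1. The choice of most named genes by calls with and without that animal fixed it in advance. With the title batch the differences turned sign for Fmod (-0.049), Bdnf (0.053), Gria4 (0.054), Hif1a (0.022) and Tspan2 (0.17). Of 557 list members 74 were called, where 9.7% of all features were. Without SHRSP/A3NCrl 1 the count was 135, where 19.2% of all features were called. The replicate block gave 1898 called features, or 3554 without SHRSP/A3NCrl 1, and changed no call of a named gene. Each v5 animal had 1 library, so batch was fitted without the animal as a block there.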

Other observations

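Of the 25 genes called in the v7.1 table, 16 were unnamed loci and 12 had a v5 feature of the same symbol. LOC108351070 was at 36.9 and 32.9 in SHRSP/A3NCrl 2 and 3, which is too high for a log2 level, and 4 values over 30 occurred in that table. Alox15, a lipoxygenase that oxidises polyunsaturated fatty acids, was lower by -1.82 in v7.1, and differed by -0.94 in v5 (adjusted p 0.0637, limma with Benjamini-Hochberg adjustment). Mettl24, a predicted methyltransferase, was higher by 1.28 in v7.1 and differed by 0.16 in v5. Colq, the collagen tail that anchors acetylcholinesterase, was lower by -0.76 in v7.1, differed by -0.19 in v5 (adjusted p 0.129) and lost its call in the v7.1 libraries with batch (adjusted p 0.0848).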
